A study of Mus musculus with 6 samples.

Results

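The 33 genes described here encode the enzymes and carriers of glycolysis, the neighbouring pyruvate dehydrogenase step and the pentose phosphate pathway. They were taken by name, with earlier results of these data known, from the 53060 genes and merged loci of an RNA-seq count table of mouse neural progenitor cells (NPCs), and all 33 were abundant enough to be among the 19073 that were tested. The table holds 3 libraries of *Armc5* knockout (KO) NPCs and 3 of wild-type (WT) NPCs, each KO library sharing a replicate number with a WT library. Cells of both genotypes came from ganglionic eminences dissected from e13.5 embryos, were grown as neurospheres in 20 ng/ml epidermal growth factor, with no other treatment named, and were harvested at passage 2. *Armc5* encodes an adaptor of a ubiquitin ligase that acts on RNA polymerase II, and how its KO allele was made was not used here. The labels give the strain as 129 sv X CD1, the study describes its mice as CD1 x C57BL/6 F1, and neither says whether the embryos of a number were littermates.

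Glycolysis splits glucose into pyruvate in the cytosol. In fast dividing progenitors much of that pyruvate is reduced to lactate and exported, while the pentose phosphate pathway branches off at glucose phosphate and yields NADPH and the ribose of nucleotides. Many of these genes are textbook targets of the hypoxia inducible factors (HIF), which bind short sequences with the core ACGTG or GCGTG, and of MYC.

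The libraries held between 52995791 counts (KO NPC 3) and 85170379 counts (KO NPC 1) at loci that name a gene. *Armc5* was at 0.730 to 1.64 CPM (counts scaled to the TMM-adjusted total of a library) in the KO NPCs and at 26.2 to 31.2 CPM in the WT NPCs, as the labels say. One KO library stood apart from the rest. In KO NPC 3 the summed level of 10 G2 and M phase genes was 88.8 CPM, against 2425 to 2929 CPM in the other 5 libraries, and that of 10 S phase genes was 196 CPM, against 1328 to 1718 CPM. The sum of 8 astrocyte markers was 2916 CPM in KO NPC 3 and 945 to 1516 CPM in the other 5, that of 12 oligodendrocyte lineage markers, of which *Mog* was too low to be tested, was 5167 CPM against 2701 to 4362 CPM, and that of 13 progenitor markers was 4096 CPM against 4917 to 5706 CPM. The sum of 8 endothelial and mural markers was 77.7 CPM in KO NPC 3 and 14.0 to 18.8 CPM in the other 5, of which the mural gene *Pdgfrb* made up 58.5 CPM in KO NPC 3, while the endothelial *Cdh5* and *Cldn5* were too low to be tested. Microglial markers were near 0 in all libraries, at no more than 1.03 CPM summed over 8 genes, with *Tyrobp* at 0. In these bulk samples fewer cells of a type and less RNA per cell cannot be told apart, and results that rest on KO NPC 3 are therefore also given without it. The 3 libraries of a genotype are labelled as replicates, and the p values measure only the spread between them.

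For 27 of the 33 genes the table has a locus of their own, and 6 share one. *Slc2a1*, *Tkt* and *Pkm* are merged with small or unnamed genes, *Pfkm* with *Gm26513*, *Pfkfb2* with *Gm29427* and *C4bp-ps1*, and *Tpi1* with *Usp5*, so that the *Tpi1* values below also count *Usp5*. The loci of 7 genes (*Tpi1*, *Pfkfb2*, *Pkm*, *Pdk1*, *Pdha1*, *Pdhb* and *G6pdx*) run more than 10 kb past the GENCODE gene, by 224 kb for *Pdk1*, 169 kb for *Tpi1* and 93.8 kb for *G6pdx*, and may hold reads of neighbouring genes. The *Tpi1* locus spans 7 other coding genes on its own strand, among them the member *Eno2*. Reads of *Eno1*, *Pgam1* and *Pgk1* can also fall on near-identical copies: *Eno1b* (99.5% identical over 1736 bases) held counts equal to 35.3% to 48.5% of those of *Eno1* in the same library, *Pgam1-ps2* (100% over 765 bases) 24.2% to 56.7% of those of *Pgam1*, and *Pgk1-rs7* (100% over 1255 bases) 9.18% to 10.8% of those of *Pgk1*. No source used here says how reads were shared between a gene and its copy, so the levels of these 3 genes are uncertain. Whether counting used the strand is not given either, and 10 of the loci overlap a coding gene on the other strand and 4 (*Tpi1*, *Pkm*, *Pdk1* and *G6pdx*) a coding gene on their own strand that the locus does not name.

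The start regions of 5 members that recur below are shown because in each of them the library numbered 1 was the highest of its genotype in both KO and WT. Each is a RefSeq promoter window on GRCm38.p6, from 250 bases before to 50 bases after a transcription start, read 5′ to 3′ on the gene's strand. Capitals mark every ACGTG or GCGTG on either strand, so that CACGTG, which reads the same on both strands, counts as 2 matches. *Slc2a1*, which encodes the glucose carrier GLUT1, has 2 matches (chr4:119108495-119108794, plus strand). *Ldha*, lactate dehydrogenase A, has 7 in the window shown (chr7:46845554-46845853, plus strand) and 2 in its other window. *Slc16a3*, the lactate exporter MCT4, has 2 (chr11:120948817-120949116, plus strand). *Pdk1*, the kinase that switches pyruvate dehydrogenase off, has 2 in the window shown (chr2:71872974-71873273, plus strand) and 0 in its other window. For *Ldha* and *Pdk1* the window with the most matches is shown. *Eno2*, the neuronal enolase, has 0 (chr6:124769624-124769923, minus strand).
Slc2a1: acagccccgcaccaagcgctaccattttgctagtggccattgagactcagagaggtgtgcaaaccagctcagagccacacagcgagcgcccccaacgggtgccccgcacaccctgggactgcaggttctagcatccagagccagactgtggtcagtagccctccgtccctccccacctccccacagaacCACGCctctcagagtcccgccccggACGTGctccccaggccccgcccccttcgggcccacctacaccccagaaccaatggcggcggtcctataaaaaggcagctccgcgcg
Ldha: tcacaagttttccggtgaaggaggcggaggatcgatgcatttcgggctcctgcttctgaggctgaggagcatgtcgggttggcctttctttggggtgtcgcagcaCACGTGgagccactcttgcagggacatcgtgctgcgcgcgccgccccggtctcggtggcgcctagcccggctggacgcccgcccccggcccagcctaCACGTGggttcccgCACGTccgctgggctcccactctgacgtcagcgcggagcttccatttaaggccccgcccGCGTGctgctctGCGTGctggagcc
Slc16a3: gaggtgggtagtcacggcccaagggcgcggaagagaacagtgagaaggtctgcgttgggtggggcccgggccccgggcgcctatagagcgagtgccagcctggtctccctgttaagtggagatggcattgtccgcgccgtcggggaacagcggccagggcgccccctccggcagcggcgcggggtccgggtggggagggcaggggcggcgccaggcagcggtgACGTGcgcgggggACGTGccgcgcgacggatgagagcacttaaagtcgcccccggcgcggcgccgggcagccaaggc
Pdk1: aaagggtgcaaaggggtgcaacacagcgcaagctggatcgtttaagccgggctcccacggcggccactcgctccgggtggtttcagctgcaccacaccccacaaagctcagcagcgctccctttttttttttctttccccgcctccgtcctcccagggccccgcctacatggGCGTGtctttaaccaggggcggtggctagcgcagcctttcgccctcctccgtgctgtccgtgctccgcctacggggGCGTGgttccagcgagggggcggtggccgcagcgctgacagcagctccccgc
Eno2: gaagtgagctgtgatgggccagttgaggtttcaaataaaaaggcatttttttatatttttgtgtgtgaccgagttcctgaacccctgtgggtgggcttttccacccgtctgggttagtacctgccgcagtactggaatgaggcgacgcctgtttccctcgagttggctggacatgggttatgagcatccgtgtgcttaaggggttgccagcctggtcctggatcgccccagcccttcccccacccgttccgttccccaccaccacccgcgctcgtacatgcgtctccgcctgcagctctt

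Of the 32 members with a window in the RefSeq table (*Slc2a3* had none), 28 (87.5%) had a match in at least one window, against 46.7% of 27025 genes with a window and 65.4% of the 12176 of those that were expressed enough to be tested. A gene with more windows has more places for a match, and the number of windows per gene differed between these sets. Counted by window, a match was found in 77.1% of the 48 windows of the members. That share was 59.3% of 15598 windows of the tested genes and 43.8% of all 32851 windows. The 4 members without a match were *Eno2*, *Gpi1*, *Tpi1* and *Dlat*. A match describes the letters of the window and is not a binding site.

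The comparison of KO with WT asks whether loss of *Armc5* changes the RNA of this pathway. Of the 33 genes, 0 passed an adjusted p under 0.05 in edgeR's quasi-likelihood test, and 0 had an unadjusted p under 0.05. Over all 19073 genes the same test called 0% after adjustment and 1.61% before it. The deleted gene *Armc5* was itself not called by this test (log2 fold change -4.68, adjusted p = 0.086). A count of 0 called therefore does not show that the members were unchanged. Members called were also 0 with edgeR's likelihood ratio test (0.0891% of all genes), with DESeq2 (0.184%) and with a block for the replicate number in the likelihood ratio fit (0.199%). For none of the 33 genes did the KO and WT values fail to overlap, which they did for 6.02% of all genes. The log2 fold changes ran between -0.59 (*Pgam1*) and 0.21 (*Pfkfb2*), and 25 of 33 lay below 0, against 51.6% of all genes. Compared within replicate numbers, KO was lower in all 3 for 8 members, against 11.7% of all genes, and higher in all 3 for 0, against 10.9%. Their median was -0.27, against -0.01 over all genes tested. Without KO NPC 3 the median was -0.06 (22 of 33 below 0), against -0.01 over all genes. With the counts scaled in proportion to the noncoding RNA *Rn7sk*, the study's own reference, the members' median was -0.49 and that of all genes -0.26. The study's formula was another one, a ratio of log2 *Rn7sk* levels to their average over samples, and it was not run here. *Rn7sk* itself was at 11684, 15631 and 13924 CPM in KO NPC 1, 2 and 3, against 12906, 16126 and 8069 CPM in WT NPC 1, 2 and 3. That is a 2.00-fold range, which scaling in proportion to *Rn7sk* carries into every gene.

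**Figure D1:**
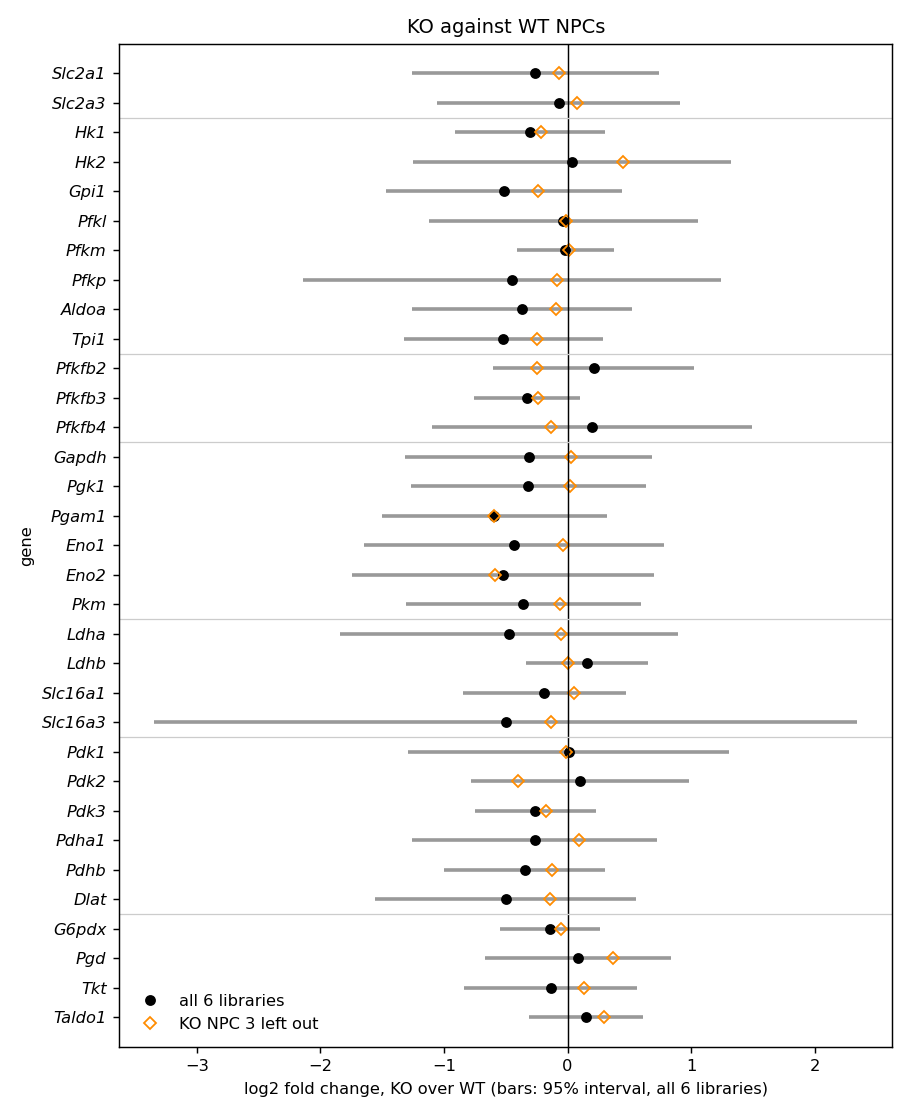
The log2 fold change of each of the 33 genes, KO over WT, with its 95% interval from edgeR's quasi-likelihood fit of 3 KO and 3 WT libraries (black points, grey bars), and the log2 fold change with KO NPC 3 left out (open orange diamonds). Every interval spans 0, and 25 of the 33 black points lie left of 0, with a median of -0.27, against -0.06 for the diamonds.

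The genes of glucose uptake overlapped between the genotypes and were high in the libraries numbered 1. *Slc2a1* was at 64.5, 41.3 and 33.0 CPM in KO NPC 1, 2 and 3, against 87.6, 42.5 and 36.4 CPM in WT NPC 1, 2 and 3. The neuronal glucose carrier GLUT3, encoded by *Slc2a3*, was at 27.1, 19.5 and 16.3 CPM in the KO NPCs, against 35.6, 16.2 and 14.3 CPM in the WT NPCs (from here on values of a genotype are in the order of the replicate numbers). For both carriers the number 1 library was the highest of its genotype, and the genotypes overlapped. Their log2 fold changes were -0.26 (standard error 0.41, adjusted p = 0.983) for *Slc2a1* and -0.07 (standard error 0.41, adjusted p = 0.987) for *Slc2a3* by edgeR's quasi-likelihood test, which gives every adjusted p of single genes below. Over the 33 genes the adjusted p ran between 0.983 and 0.999, and it is not repeated for each.

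Of the 8 genes from hexokinase to triose phosphate isomerase, 7 had a log2 fold change below 0 and the median was -0.34 (-0.09 without KO NPC 3). *Hk1*, the hexokinase of most tissues, was at 74.9, 49.1 and 51.0 CPM in the KO NPCs, against 84.2, 54.6 and 77.2 CPM in the WT NPCs. KO was 0.30 lower on the log2 scale (log2 fold change -0.30, standard error 0.25), and it was the lower within each of the 3 replicate numbers. *Hk2*, the hexokinase induced in growing cells, was at 51.0, 55.9 and 13.3 CPM in the KO NPCs, against 45.5, 44.7 and 27.1 CPM in the WT NPCs. Both libraries numbered 3 were thus the lowest for *Hk2*, and its log2 fold change was 0.03 (standard error 0.53; 0.45 without KO NPC 3). *Gpi1*, which turns glucose phosphate into fructose phosphate, was at 518, 355 and 208 CPM in the KO NPCs, against 710, 372 and 461 CPM in the WT NPCs. KO was lower within all 3 numbers, by a log2 fold change of -0.51 (standard error 0.39; -0.24 without KO NPC 3), but KO NPC 1 lay above WT NPC 2 and WT NPC 3.

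Phosphofructokinase, the main control point of glycolysis, has 3 subunit genes, and they did not vary alike. *Pfkm* was the steadiest of the 33 genes, at 80.7, 67.2 and 69.9 CPM in the KO NPCs, against 79.6, 77.3 and 63.5 CPM in the WT NPCs, a 1.27-fold range over the 6 libraries. *Pfkl* ranged 2.90-fold, with 62.1 and 83.4 CPM in KO NPC 1 and WT NPC 1, against 28.8 to 46.3 CPM in the other 4. *Pfkp* ranged 5.01-fold, from 3.12 CPM in KO NPC 3 to 15.6 CPM in KO NPC 2 and WT NPC 3, with no order by genotype or number. The values of *Aldoa*, aldolase A, were 468, 335 and 192 CPM in the KO NPCs, against 568, 335 and 381 CPM in the WT NPCs. The merged *Tpi1* locus was at 254, 200 and 110 CPM in the KO NPCs, against 335, 232 and 243 CPM in the WT NPCs, a log2 fold change of -0.52 (standard error 0.33; -0.25 without KO NPC 3) with KO lower within each number.

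The 3 PFKFB genes encode enzymes that make and remove the activator of phosphofructokinase. *Pfkfb3*, the form of fast growing cells, was at 25.5, 29.2 and 22.3 CPM in the KO NPCs, against 28.4, 33.0 and 35.3 CPM in the WT NPCs. It had the smallest p of the 33 genes (unadjusted p = 0.109, edgeR's quasi-likelihood test) with -0.33 as its log2 fold change (standard error 0.18, 95% interval -0.76 to 0.10), was lower in KO within each number, and kept a value of -0.24 without KO NPC 3. *Pfkfb2* was at 43.4 CPM in KO NPC 3, against 19.8 to 26.4 CPM in the other 5 libraries. *Pfkfb4* was scarce, at 1.46, 5.15 and 5.84 CPM in the KO NPCs, against 2.74, 3.87 and 4.23 CPM in the WT NPCs, and was the only member for which both libraries numbered 1 lay below the other 4. KO NPC 3 was the highest library for *Pfkfb2* and *Pfkfb4*, unlike for most members.

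All 6 genes from glyceraldehyde phosphate to pyruvate had a log2 fold change below 0, with a median of -0.40, and of -0.05 without KO NPC 3. The study assayed *Gapdh* by nuclear run-on as a gene unchanged in its RNA-seq, and reported similar new transcription in KO and WT. Here *Gapdh* was at 745, 670 and 256 CPM in the KO NPCs, against 848, 549 and 680 CPM in the WT NPCs. KO NPC 3 was at 37.0% of the WT mean, and the log2 fold change of -0.31 (standard error 0.41) became 0.03 without that library. *Pgk1*, the first step that yields ATP, was at 299, 264 and 106 CPM in the KO NPCs, against 336, 248 and 249 CPM in the WT NPCs. *Pgk1* behaved like *Gapdh*, at 38.1% of the WT mean in KO NPC 3 and with a log2 fold change of -0.32 that became 0.02 without it. The main enolase *Eno1* was at 494, 415 and 125 CPM in the KO NPCs, against 606, 389 and 400 CPM in the WT NPCs, a log2 fold change of -0.43 (standard error 0.50; -0.04 without KO NPC 3). Pyruvate kinase, *Pkm*, was at 977, 674 and 366 CPM in the KO NPCs, against 1105, 635 and 843 CPM in the WT NPCs.

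*Pgam1* and *Eno2* departed from their neighbours in the pathway. The largest difference of the list was that of *Pgam1*, phosphoglycerate mutase, with a log2 fold change of -0.59 (standard error 0.38). It was at 112, 79.4 and 97.5 CPM in the KO NPCs, against 126, 83.2 and 227 CPM in the WT NPCs, so that WT NPC 3 alone stood out. Without WT NPC 3 its log2 fold change was -0.12, and without WT NPC 2 it was -0.84 (unadjusted p = 0.045, adjusted p = 0.999, edgeR's quasi-likelihood test). Its copy *Pgam1-ps2* was at 54.9 CPM in WT NPC 3, within the range of the other libraries (24.4 to 67.2 CPM), and the *Pgam1* peak was thus not seen at the copy. Relative to *Pgam1*, the copy was lower in both libraries numbered 3 than in any other library. In KO NPC 3 the copy was at 43.9% of its WT mean and *Pgam1* at 67.1%. How reads were split between the 2 loci was not tested, and the *Pgam1* difference carries that uncertainty. *Eno2* was at 9.08, 6.62 and 8.86 CPM in the KO NPCs, against 21.6, 7.55 and 6.16 CPM in the WT NPCs, a log2 fold change of -0.52 (standard error 0.51) that WT NPC 1 set, and without that library it was 0.26.

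The lactate genes held both the largest drop in KO NPC 3 and a gene that did not drop there. *Ldha*, which favours the reduction of pyruvate to lactate, was at 230, 184 and 47.8 CPM in the KO NPCs, against 295, 169 and 177 CPM in the WT NPCs. KO NPC 3 was at 22.4% of the WT mean, the lowest share of the 33 genes, and the log2 fold change of -0.47 (standard error 0.57) was -0.05 without it. *Ldhb*, the lactate dehydrogenase of oxidative tissues, was at 102, 86.3 and 126 CPM in the KO NPCs, against 109, 92.8 and 80.4 CPM in the WT NPCs, and KO NPC 3 was its highest library. *Slc16a1*, the lactate carrier MCT1, was at 130, 116 and 67.5 CPM in the KO NPCs, against 122, 102 and 133 CPM in the WT NPCs. *Slc16a3* was the most variable member, at 6.78, 2.90 and 1.51 CPM in the KO NPCs, against 13.8, 1.40 and 0.628 CPM in the WT NPCs. The libraries numbered 1 held its 2 highest levels, the range over the 6 libraries was 22.0-fold, and the log2 fold change of -0.50 had a 95% interval of -3.34 to 2.35.

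Pyruvate dehydrogenase carries pyruvate into the citric acid cycle, and its kinases switch it off. *Pdha1*, its E1 alpha subunit, was at 289, 270 and 95.5 CPM in the KO NPCs, against 289, 265 and 233 CPM in the WT NPCs. The E2 subunit *Dlat* was at 145, 112 and 42.8 CPM in the KO NPCs, against 169, 119 and 137 CPM in the WT NPCs, and its log2 fold change was -0.50 (standard error 0.44; -0.14 without KO NPC 3). For both subunits KO NPC 3 was the only library far from the rest, and *Pdhb*, the E1 beta subunit, was lowest there too, at 42.3 CPM against 63.9 to 93.0 CPM. Of the kinases, *Pdk3* was at 50.6, 53.5 and 42.8 CPM in the KO NPCs, against 73.2, 53.2 and 50.0 CPM in the WT NPCs. *Pdk2* was highest in KO NPC 3, at 79.0 CPM against 31.8 to 54.5 CPM in the other 5 libraries. *Pdk1*, a HIF target, followed the replicate number instead, at 33.4, 16.9 and 26.1 CPM in the KO NPCs, against 46.7, 13.1 and 16.1 CPM in the WT NPCs.

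In none of the 4 pentose phosphate genes did both libraries numbered 1 lie above the other 4. *G6pdx*, the enzyme that commits glucose phosphate to this pathway, was at 84.7, 103 and 77.3 CPM in the KO NPCs, against 91.2, 96.1 and 105 CPM in the WT NPCs (log2 fold change -0.14, standard error 0.17). *Pgd*, phosphogluconate dehydrogenase, was at 93.7, 85.9 and 41.9 CPM in the KO NPCs, against 64.8, 68.3 and 76.0 CPM in the WT NPCs. KO NPC 1 and KO NPC 2 thus lay above all WT NPCs and KO NPC 3 below them. For *Pgd* the log2 fold change was 0.08 (standard error 0.31), and 0.37 (standard error 0.11, unadjusted p = 0.019, adjusted p = 1.00, edgeR's quasi-likelihood test) without KO NPC 3, where 2.77% of all genes had an unadjusted p under 0.05. *Taldo1*, transaldolase, had the same order, at 64.8, 77.6 and 51.1 CPM in the KO NPCs, against 55.8, 58.1 and 60.6 CPM in the WT NPCs. The difference was 0.15 on the log2 scale (standard error 0.19), and 0.29 (standard error 0.12, unadjusted p = 0.049, adjusted p = 1.00, same test) without KO NPC 3, but 0.026 without KO NPC 2. *Tkt*, transketolase, was at 418, 416 and 207 CPM in the KO NPCs, against 392, 395 and 357 CPM in the WT NPCs. The median over the 4 genes was -0.03, and 0.21 without KO NPC 3.

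**Figure D2:**
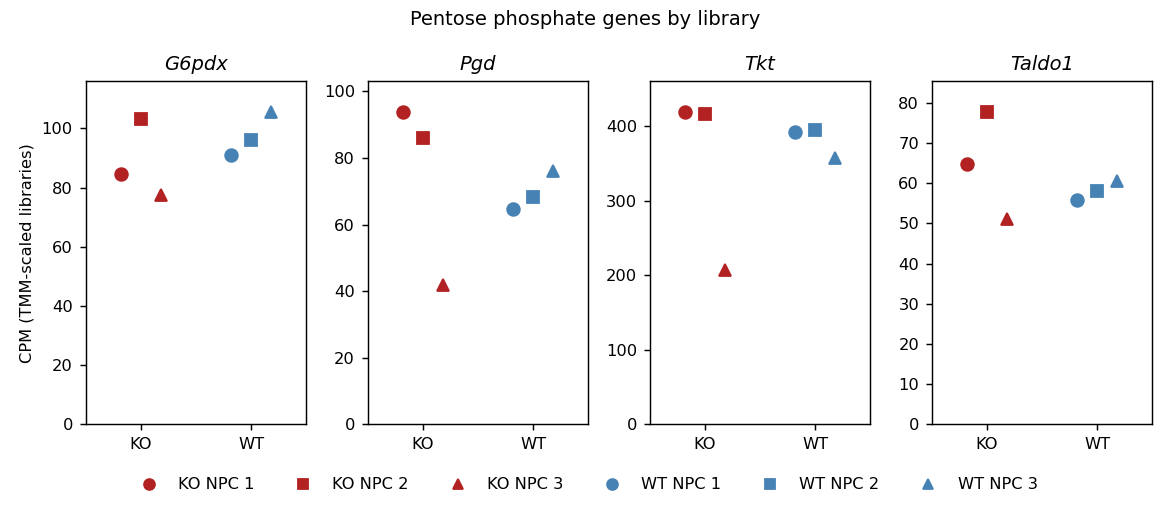
CPM of *G6pdx*, *Pgd*, *Tkt* and *Taldo1* in 3 KO (red, left) and 3 WT (blue, right) libraries, 1 point per library, with the marker shape for the replicate number. For *Pgd* and *Taldo1*, KO NPC 1 and 2 lie above the 3 WT libraries and KO NPC 3 lies below them.

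Across libraries, most of the 33 genes were lowest in KO NPC 3, and many were high in the libraries numbered 1. KO NPC 3 was the lowest of the 6 libraries for 21 of 33 members, against 36.8% of all genes, and the highest for 4 (*Pfkfb2*, *Pfkfb4*, *Ldhb* and *Pdk2*), against 34.9%. The median member lay 0.69 below its own mean in KO NPC 3 on the log2 CPM scale (-0.69), whereas it lay at 0.25 in KO NPC 1, 0.01 in KO NPC 2, 0.42 in WT NPC 1, -0.07 in WT NPC 2 and 0.08 in WT NPC 3. The median over all genes stayed between 0.01 and 0.04 in the 6 libraries. Together the members took 0.590%, 0.486% and 0.303% of the counts in KO NPC 1, 2 and 3, against 0.670%, 0.462% and 0.540% in WT NPC 1, 2 and 3. The drop in KO NPC 3 was uneven, at 22.4% of the WT mean for *Ldha*, 26.9% for *Eno1*, 30.1% for *Dlat*, 34.0% for *Hk2* and 36.4% for *Pdha1*, but 134% for *Ldhb*, 161% for *Pfkfb4*, 170% for *Pdk2* and 178% for *Pfkfb2*. The cell cycle, astrocyte, oligodendrocyte, progenitor and mural markers given above moved in the same library, and their part in these values was not tested.

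**Figure D3:**
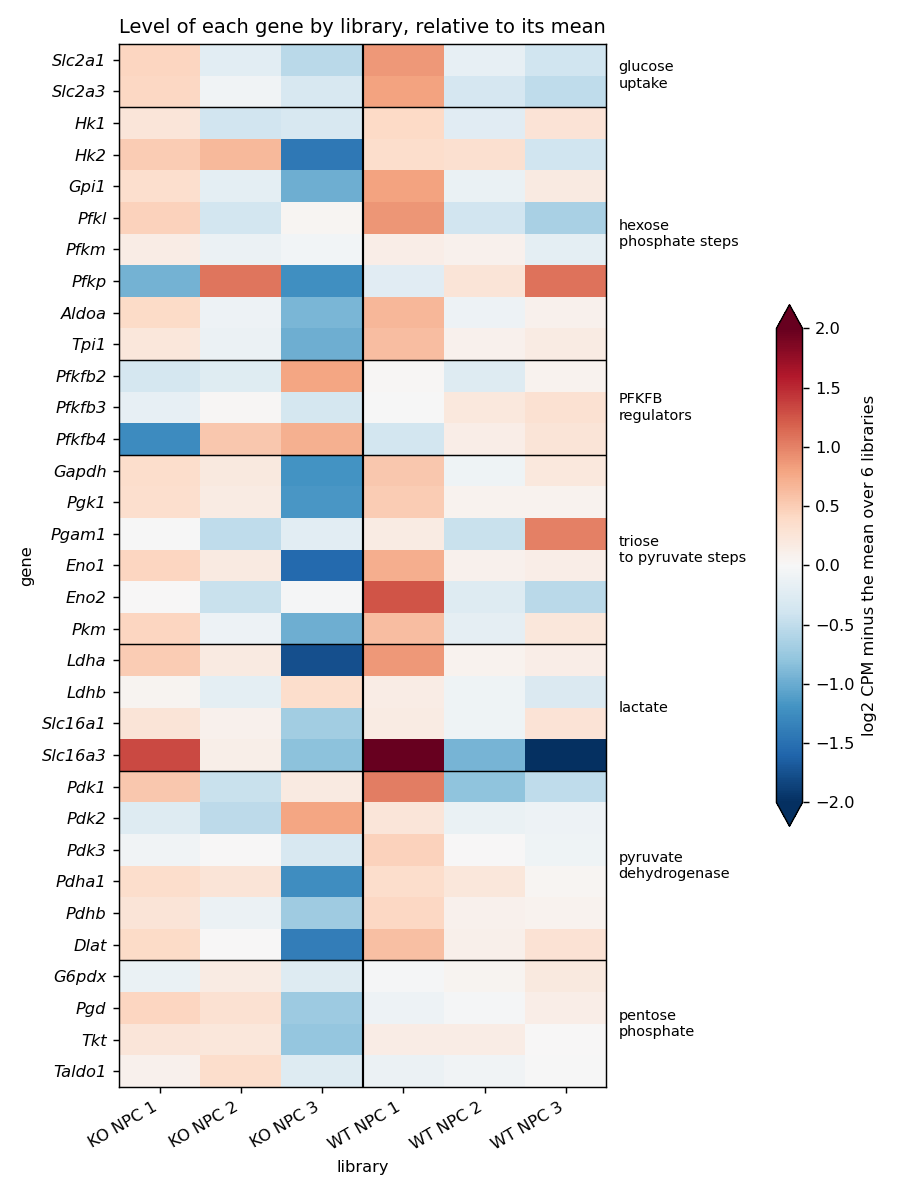
Level of each of the 33 genes in each library as log2 CPM minus its mean over the 6 libraries (red above, blue below, the scale ends at -2 and 2), with the KO libraries left of the WT libraries and the genes grouped by step. KO NPC 3 is the lowest library for 21 of the 33 genes, and WT NPC 1 is the highest for 19.

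The second pattern followed the replicate number rather than the genotype, and it was noticed in these data, so that its tests are no independent support. In 18 of 33 members both libraries numbered 1 lay above the other 4, against 9.81% of all genes, and in 1 they lay below, against 11.4%. The libraries numbered 2 lay above the other 4 in 0 members (7.35% of all genes) and those numbered 3 in 1 member, *Pfkfb2* (10.9% of all genes). These 18 were both glucose carriers, *Gpi1*, *Pfkl*, *Pfkm*, *Aldoa*, *Tpi1*, *Gapdh*, *Pgk1*, *Eno1*, *Eno2*, *Pkm*, *Ldha*, *Slc16a3*, *Pdk1*, *Pdha1*, *Pdhb* and *Dlat*, and none of the 3 PFKFB and 4 pentose phosphate genes was among them. The margin was small for some, such as *Pfkm* (80.7 and 79.6 CPM, against at most 77.3 CPM) and *Pdha1* (289 and 289 CPM, against at most 270 CPM). With KO NPC 3 set aside the count was 19 of 33, against 14.3% of all genes, and number 1 was the highest library of its genotype in both KO and WT for 19 members, against 14% of all genes. The median member was 0.53 higher on the log2 scale in the libraries numbered 1 than in the other 4, and 0.32 higher than in the other 3 without KO NPC 3, against 0.01 and 0.00 over all genes. A term for the replicate number in the edgeR fit gave an unadjusted quasi-likelihood p under 0.05 for 6 of 33 members (*Slc2a1*, *Slc16a3*, *Pdk1*, *Slc2a3*, *Pfkl* and *Hk2*) and 6.53% of all genes, and an adjusted one for 0 members and 0% of all genes. By the likelihood ratio test it called 1 member, *Slc16a3* (adjusted p = 0.0022), and 3.69% of all genes. No source used here says what the number stands for beyond a shared label. Many markers of differentiated cells had the opposite order, in that both libraries numbered 1 lay below the other 4 for 6 of 10 neuron, 5 of 8 astrocyte and 7 of 11 oligodendrocyte lineage markers tested, against 11.4% of all genes. The term for the number called 6, 2 and 8 of these by the likelihood ratio test, and the summed oligodendrocyte lineage level was 2770 and 2701 CPM in KO NPC 1 and WT NPC 1, against 3065 to 5167 CPM in the other 4. The other 2 sums did not have this order. The neuron sum was 815 and 1482 CPM in KO NPC 1 and WT NPC 1, against 837 to 1397 CPM in the other 4. The astrocyte sum was 1168 and 1083 CPM, against 945 to 2916 CPM. The part of these markers in the pattern was not tested. Among the 17 of these 18 genes with a promoter window 13 held ACGTG or GCGTG, and among the 15 other members all 15 did.

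**Figure D4:**
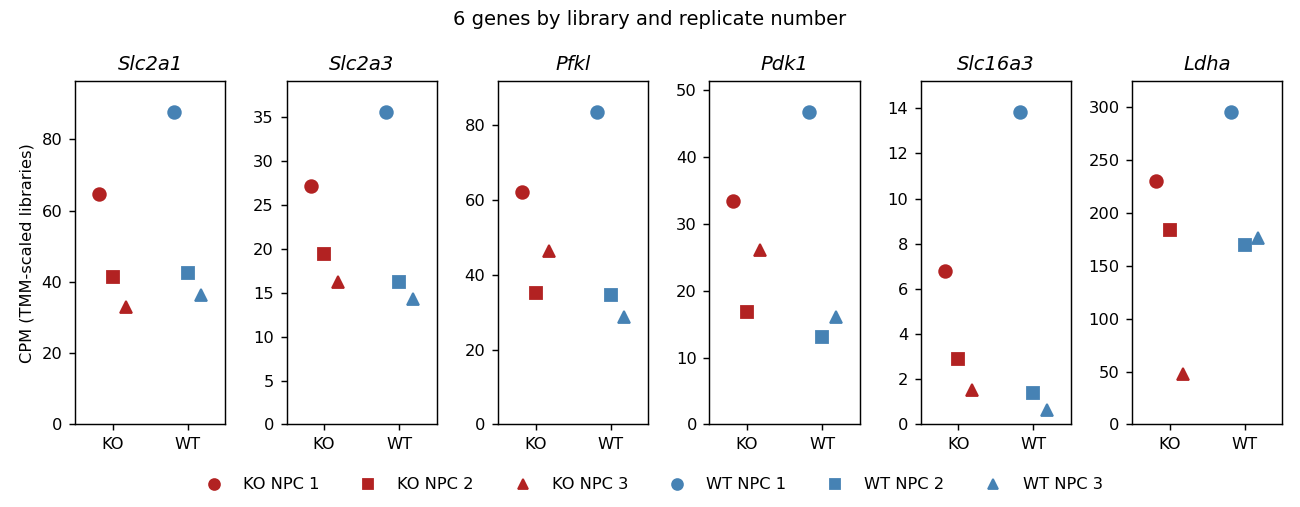
CPM of *Slc2a1*, *Slc2a3*, *Pfkl*, *Pdk1*, *Slc16a3* and *Ldha* in 3 KO (red, left) and 3 WT (blue, right) libraries, 1 point per library, with the marker shape for the replicate number and each axis starting at 0. In all 6 genes the circles, which are the libraries numbered 1, are the highest of both genotypes.

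Ratios of 2 members within a library do not depend on how the libraries are scaled, and 12 such ratios of counts were set against the genotype in an exact permutation test (two-sided, 6 libraries), whose smallest possible p is 0.1. The adjusted p, by Benjamini-Hochberg over the 12 ratios, was 0.84 or more for each. *Slc2a3* over *Slc2a1* was the only ratio whose genotypes did not overlap, at 0.420, 0.472 and 0.493 in the KO NPCs, against 0.406, 0.381 and 0.393 in the WT NPCs. On the log2 scale KO was 0.23 above WT (exact permutation p = 0.1, the smallest possible, adjusted p = 0.84), and within numbers 1, 2 and 3 the differences were 0.05, 0.31 and 0.33 (exact sign-flip p = 0.25, the smallest possible for 3 pairs). *Ldhb* over *Ldha* was 0.445, 0.469 and 2.64 in the KO NPCs, against 0.369, 0.548 and 0.455 in the WT NPCs. KO NPC 3 alone set its log2 difference of 0.86 (exact permutation p = 0.5), which was 0.02 without that library. The same library was the highest for *Pfkfb2* over *Pfkfb3* (1.94, against 0.636 to 0.897 in the other 5), for *Eno2* over *Eno1* (0.0708, against 0.0154 to 0.0356) and for *Pdk1* over *Pdha1* (0.273, against 0.0493 to 0.161). These ratios were chosen for naming after their values were seen.

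**Figure D5:**
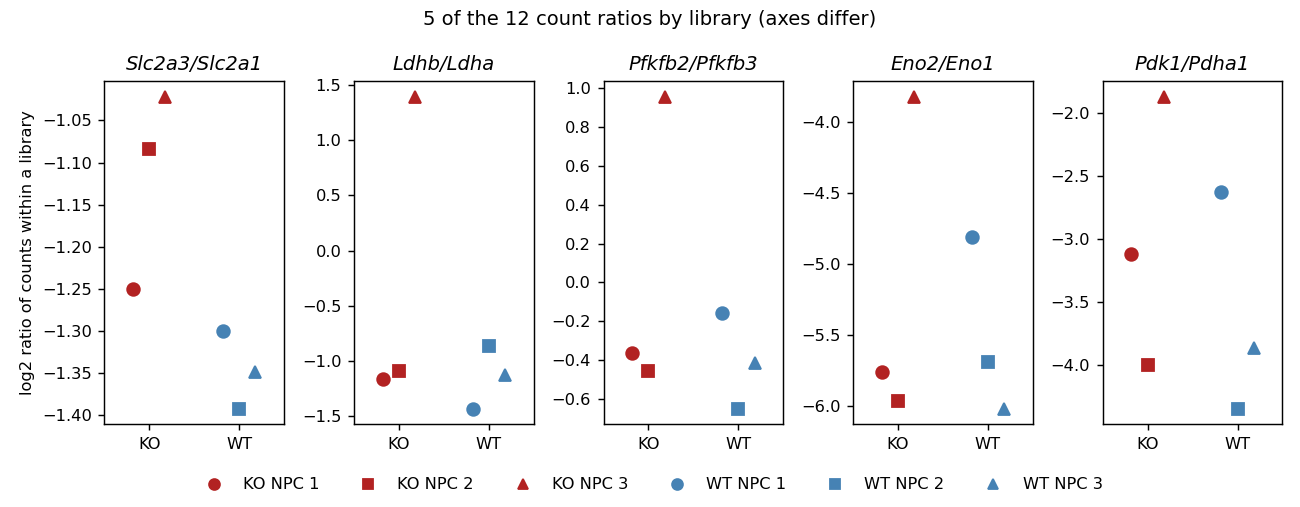
Log2 ratio of the counts of 2 genes in each of 3 KO (red, left) and 3 WT (blue, right) libraries for 5 of the 12 ratios, with the marker shape for the replicate number and a separate axis for each ratio. KO NPC 3 is the highest library in all 5, and *Slc2a3* over *Slc2a1* is the only one in which the 3 KO libraries lie above the 3 WT libraries.

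Per kilobase of locus length, the levels of the 27 genes with a locus of their own can be set against each other, with limits. The loci of *Pdk1*, *Pdha1*, *Pdhb* and *G6pdx* run past the gene. The levels of *Pgk1*, *Eno1* and *Pgam1* are uncertain because of their copies. *Gapdh* was the highest, at 135 ± 63.7 CPM per kb in the KO NPCs and 168 ± 36.2 CPM per kb in the WT NPCs (SD, n = 3 each). *Aldoa* (114 ± 47.5 CPM per kb in the KO NPCs and 147 ± 42.4 CPM per kb in the WT NPCs, SD, n = 3 each) and *Pgk1* (99.3 ± 45.9 and 124 ± 22.7 CPM per kb, KO and WT) came next, and the SDs of these 3 neighbours overlap. At the low end *Slc16a3* (0.701 ± 0.513 CPM per kb in the KO NPCs and 0.993 ± 1.39 CPM per kb in the WT NPCs), *Pfkp* (0.560 ± 0.522 and 0.765 ± 0.361 CPM per kb, KO and WT) and *Pfkfb4* (0.851 ± 0.483 and 0.742 ± 0.160 CPM per kb, KO and WT) did not differ beyond their spread. Among the isoenzymes of neurons and of dividing cells, *Eno2* was at 1.74 ± 0.289 CPM per kb in the KO NPCs and 2.50 ± 1.81 CPM per kb in the WT NPCs, and *Eno1* at 51.6 ± 29.1 and 69.7 ± 18.2 CPM per kb, KO and WT.

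In 6 further lists of 69 carriers, isoenzymes and enzymes of pyruvate, gluconeogenesis, ribose and glycogen, 54 genes were tested, and 0 passed an adjusted p under 0.05 in edgeR's quasi-likelihood or likelihood ratio test or in DESeq2. An unadjusted quasi-likelihood p under 0.05 was found for 0 of them, against 1.61% of all genes, and 31 (57.4%) had a log2 fold change below 0, against 51.6%. Lists of 11 HIF and MYC regulators and 18 HIF targets outside glycolysis held 1 gene with such a p and 0 with an adjusted one. In all 8 lists 1 of the 82 genes tested (1.22%) thus passed the unadjusted threshold, against 1.61% of all genes. That 1 gene was the regulator *Epas1*, which encodes HIF2A, at 29.3, 25.3 and 79.4 CPM in the KO NPCs, against 19.0, 17.9 and 22.1 CPM in the WT NPCs. All 3 KO NPCs lay above all 3 WT NPCs, as for 2.74% of all genes, and the log2 fold change was 1.18 (standard error 0.46, unadjusted p = 0.040, adjusted p = 0.983, edgeR's quasi-likelihood test; 0.48 without KO NPC 3). *Aldoc*, the aldolase of astrocytes and a marker of them, was at 180, 251 and 276 CPM in the KO NPCs, against 131, 226 and 206 CPM in the WT NPCs, a log2 fold change of 0.33 (standard error 0.27). *Pygb*, brain glycogen phosphorylase, was at 551 CPM in KO NPC 3, against 99.1 to 140 CPM in the other 5 libraries. *Prps2*, which makes the activated ribose of nucleotides, was at 23.8 CPM in KO NPC 3, against 93.7 to 133 CPM in the other 5. For *Pck2*, the mitochondrial enzyme that turns oxaloacetate into phosphoenolpyruvate, the values were 22.9, 12.8 and 7.21 CPM in the KO NPCs, against 27.5, 17.7 and 18.9 CPM in the WT NPCs.

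Of the 18 HIF targets outside glycolysis, 17 were tested, and in 9 of these both libraries numbered 1 lay above the other 4, whereas in 8 they did not. In the other 7 lists this order was found for 9 of 65 genes (13.8%), and over all genes for 9.81%. The difference between the lists was not tested. *Vegfa*, the endothelial growth factor, was at 62.3, 44.4 and 27.1 CPM in the KO NPCs, against 89.0, 56.0 and 38.0 CPM in the WT NPCs. *Plod2*, a collagen lysine hydroxylase, was at 81.7, 65.3 and 41.5 CPM in the KO NPCs, against 126, 61.4 and 61.3 CPM in the WT NPCs. *Car12*, a membrane carbonic anhydrase, was at 5.60, 3.82 and 0.730 CPM in the KO NPCs, against 11.6, 2.81 and 4.99 CPM in the WT NPCs. Their log2 fold changes were -0.45, -0.40 and -0.93 in that order, and -0.20, -0.18 and -0.46 without KO NPC 3. The median over the 17 genes was -0.22, against -0.01 over all genes, and it was -0.18 without KO NPC 3 and -0.13 without the libraries numbered 1. Among the 11 regulators, which include *Hif1a*, *Vhl*, *Egln1*, *Myc* and *Mycn*, 1 gene had both libraries numbered 1 above the other 4, and the median was 0.05.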

How the data were processed

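Libraries were paired-end and strand-specific, from total RNA after removal of rRNA. The authors deposited raw whole-number counts for loci assembled by StringTie on GRCm38, and the submitters' processing notes also name Trimmomatic, STAR, Picard and edgeR without versions. The read counter and its use of strand: not given in the sources used here. The 16 deposited log2 columns were not used. Loci with the same gene identifiers were summed, and the 6596 loci that name no gene (1.31% to 4.89% of a library's counts) were left out. Genes passed edgeR's filterByExpr (minimum count 10, minimum total 15), were scaled by TMM and tested across all genes with the quasi-likelihood test and Benjamini-Hochberg adjustment, without a block. After removing genotype means, same-numbered libraries correlated across genes at r = 0.413, 0.169 and 0.195. Libraries of unlike number correlated at r between -0.254 and 0.058. The study speaks of pairs, and no source used here says whether the numbers mark them. The standard errors and p values of single genes given above for KO against WT do not pair the libraries by number. CPM uses TMM-scaled totals. Alternatives were *Rn7sk* scaling, total counts, no filter, the likelihood ratio test, DESeq2, the replicate block and leaving out libraries; the term for the number, leaving out number 1, and KO NPC 3 left out with the likelihood ratio test were added after seeing the data. Members and lists were chosen with earlier results of these data known. Described in full were the 6 members with the largest absolute log2 fold change, the isoenzyme with the highest counts at each step, *Gapdh*, the pentose phosphate genes and up to 3 genes of each other list with the smallest p; others were chosen after their values were seen. Scripts were tested on simulated counts. R 4.3.3, edgeR 4.0.16, limma 3.58.1, DESeq2 1.42.0, Python 3.11.15, SciPy 1.17.1 and BLAST 2.17.0 were used.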

Additional observations from a re-analysis of the deposited data

How the results depend on the processing

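Under all 16 alternatives 0 of the 33 genes passed an adjusted p under 0.05, the smallest adjusted p being 0.839 (without KO NPC 1), and the median log2 fold change of the members stayed below 0, between -0.38 (without KO NPC 1) and -0.06 (without KO NPC 3) when 1 library was left out, at -0.49 with *Rn7sk* scaling, where the median of all genes was -0.26, at -0.16 without the libraries numbered 3 and at -0.26 without those numbered 1. The count of all genes called was 0 and became 4 with *Rn7sk* scaling, 5 with no filter, 17 with the likelihood ratio test, 35 with DESeq2, 38 with the likelihood ratio test and the replicate block, and 68 with the likelihood ratio test without KO NPC 3. Members at an unadjusted p under 0.05 numbered 0 to 2 when 1 library was left out (*Pgd* and *Taldo1* without KO NPC 3, *Pfkp* without KO NPC 2, *Pgam1* without WT NPC 2), and 1, *Pgd*, without both libraries numbered 3.

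No member was called, so the turns of sign below are of values that no test set apart from 0, and their cause was not tested. *Rn7sk* scaling turned *Hk2* (-0.12), *Pfkfb2* (-0.087), *Pfkfb4* (-0.16), *Ldhb* (-0.051), *Pdk1* (-0.14), *Pdk2* (-0.14), *Pgd* (-0.18) and *Taldo1* (-0.12). Total counts turned *Pfkl* (0.039) and *Pfkm* (0.046), no filter *Pdk1* (-0.035), and DESeq2 *Pfkm* (0.0037). The replicate block turned *Slc2a3* (0.020), *Hk2* (-0.17), *Pfkl* (0.091), *Pdk2* (-0.013) and *Slc16a3* (0.43, or 0.44 with the likelihood ratio test), and changed no member's call. Its term for the number called 1 member by the likelihood ratio test and 0 by the quasi-likelihood test. With the block in the quasi-likelihood fit, 0 members had an unadjusted p under 0.05 for KO against WT. For *Tpi1* that p was 0.074, against 0.17 without the block. The standard error fell from 0.41 to 0.18 for *Slc2a1* and from 0.39 to 0.27 for *Gpi1*, and rose from 0.18 to 0.20 for *Pfkfb3*. Without both libraries numbered 1 the sign turned for *Slc2a3* (0.24), *Hk2* (-0.051), *Pfkl* (0.37), *Eno2* (0.18), *Slc16a3* (1.12) and *Pgd* (-0.17). Without both numbered 3 it turned for *Pfkp* (0.35), *Pfkfb2* (-0.19), *Pfkfb4* (-0.011), *Gapdh* (0.011), *Ldhb* (-0.10), *Slc16a1* (0.13), *Pdk1* (-0.26), *Pdk2* (-0.46), *Pdha1* (0.0060) and *Tkt* (0.079), and for the ratios *Pfkp*/*Pfkl* (0.25), *Pfkp*/*Pfkm* (0.14), *Eno2*/*Eno1* (-0.62), *Slc16a3*/*Slc16a1* (-0.12), *Pfkfb4*/*Pfkfb3* (-0.080), *Pfkfb2*/*Pfkfb3* (-0.0069) and *Pdk1*/*Pdha1* (-0.070). Without KO NPC 3 and with the likelihood ratio test it turned for *Slc2a3* (0.079), *Pfkm* (0.0086), *Pfkfb2* (-0.25), *Pfkfb4* (-0.13), *Gapdh* (0.030), *Pgk1* (0.019), *Slc16a1* (0.048), *Pdk1* (-0.011), *Pdk2* (-0.40), *Pdha1* (0.089) and *Tkt* (0.13).

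With each library left out in turn, the signs that turned had these ranges: *Slc2a1* -0.58 to 0.24, *Slc2a3* -0.31 to 0.47, *Hk2* -0.24 to 0.45, *Pfkl* -0.31 to 0.60, *Pfkm* -0.12 to 0.066, *Pfkfb2* -0.25 to 0.41, *Pfkfb4* -0.13 to 0.61, *Gapdh* -0.58 to 0.030, *Pgk1* -0.59 to 0.019, *Eno2* -0.84 to 0.26, *Slc16a1* -0.38 to 0.048, *Slc16a3* -1.27 to 1.89, *Pdk1* -0.27 to 0.82, *Pdk2* -0.40 to 0.36, *Pdha1* -0.53 to 0.089, *Pgd* -0.12 to 0.37 and *Tkt* -0.29 to 0.13, and of the ratios *Hk2*/*Hk1* -0.35 to 0.71, *Eno2*/*Eno1* -0.36 to 0.72, *Slc16a3*/*Slc16a1* -0.35 to 1.94, *Pdk2*/*Pdk1* -0.64 to 0.15, *Pfkfb4*/*Pfkfb3* -0.14 to 0.96 and *Pfkfb2*/*Pfkfb3* -0.0024 to 0.71. *Slc16a3*, *Pfkp* and *Pfkfb4* rest on the fewest counts of the list, but the standard errors of the abundant *Ldha* (0.57) and *Hk2* (0.53) were close to that of *Pfkfb4* (0.54).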
